A study of Rattus norvegicus with 3 samples.

Results

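Chaperones and folding enzymes of the endoplasmic reticulum (ER), the cytosol and the mitochondria were examined in primary rat granulosa cells, the hormone-producing cells that line the ovarian follicle. The members were 40 genes listed by symbol for their known roles, with earlier results of these data known. A probe set was used where the platform annotation gave it 1 of these symbols alone. Values were obtained for 36 of the 40, among 14218 genes on the array. These were 21 ER genes, 12 cytosolic genes and 3 mitochondrial genes, read by 52 probe sets. The probe sets of Hspa1b, Hspa8 and Hsp90aa1 are annotated to several genes, and Ern1 was not matched to a probe set, so these 4 were not analysed here.

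The cells came from immature female Sprague-Dawley rats aged 24 to 25 days, 48 h after pregnant mare's serum gonadotropin. All 3 groups carried an adenovirus at 50 pfu per cell, and no uninfected group was analysed here. The control array held cells with the green fluorescent protein virus (Ad-GFP). It is read as unstimulated because its title names no stimulus, although the protocol text does not set it apart. The stimulated array held Ad-GFP cells given 10 uM forskolin, which activates adenylyl cyclase, and 20 nM phorbol 12-myristate 13-acetate, which activates protein kinase C (FSK/PMA), for 6 h from 24 h after infection. The NFIL3 array held cells with a virus for the transcription factor NFIL3 (Ad-NFIL3), given the same FSK/PMA. Each group had 1 Affymetrix array of RNA pooled from 3 experiments. There is thus no replicate error, no test and no p-value, and precision is limited by having a single array per group.

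Proteins that enter the secretory pathway fold in the ER with the help of the HSP70 protein BiP (Hspa5), the HSP90 protein GRP94 (Hsp90b1), the lectins calnexin and calreticulin, and protein disulfide isomerases. When unfolded proteins build up there, the sensors ATF6, IRE1 (Ern1) and PERK raise the genes of this machinery, an answer called the unfolded protein response. Folding in the cytosol depends on HSP70, HSP90 and their J-protein partners, whose genes are driven by heat shock factor 1 (Hsf1), and mitochondria have their own HSP70 and the HSP60 and HSP10 chaperonin. Granulosa cells secrete inhibins, matrix proteins and growth factors, and load mitochondria with cholesterol for steroid synthesis.

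Signals are MAS5 intensities on a linear scale, given in the order control, stimulated and NFIL3 array. Signals below a floor of 126, which is the median signal of the whole data set, were raised to it before log2 was taken, and a gene stands for its probe set with the highest mean signal. Of the 36 members, 34 were above the floor on all 3 arrays. Hspb8 and Cryab, which encode small heat shock proteins, were below it on all 3, so all 21 ER members but 13 of 15 cytosolic and mitochondrial members could be compared. A difference is a log2 ratio of 2 arrays. Genes with 2 probe sets above the floor gave a robust standard deviation per difference of 0.31 for FSK/PMA (2073 genes) and 0.22 for NFIL3 (2179 genes). This measures disagreement between probe sets only and leaves out differences between cultures.

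Array facts were read once. Nfil3 had signals of 564, 1321 and 5882, so the array labelled Ad-NFIL3 had the highest. The 9 spiked hybridisation controls were 1.40 and 1.46 times as bright on the stimulated and NFIL3 arrays as on the control array. The 3' to 5' ratio was 2.61, 3.80 and 3.08 for beta-actin and 3.21, 5.04 and 2.98 for hexokinase. For GAPDH it was 1.28, 1.15 and 1.14. All 9 granulosa markers on the array were measured. With FSK/PMA 2 of them were at least 2-fold higher and 5 lower, beside 7.43% and 11.4% of all genes. Foxl2 had signals of 4616, 1361 and 1101, and Cyp19a1, the aromatase gene, had 120.1, 2490.3 and 992. Markers of other cells summed to 1271, 1067 and 1530 over 9 theca and stroma genes, to 2299, 2945 and 3286 over 7 leukocyte genes, to 436, 509.8 and 563 over 5 endothelial genes and to 1076, 613 and 539 over 6 oocyte genes. Cyp17a1 and Insl3 of theca cells, Ptprc of leukocytes, Pecam1 of endothelium and Gdf9 of oocytes were below the floor. Above it were Dcn of stroma at 201, 196 and 481, Cd14 at 606, 1488 and 1562 and Lyz2 at 1110.2, 769 and 970 of leukocytes, and Zp2 of oocytes at 891, 406 and 269. Also above it on all 3 arrays were Col3a1 at 395, 331 and 341 and Col1a2 at 165, 136 and 161 of stroma. So were Cd68 at 187, 254 and 297 and Cd74 at 246, 254 and 203 of leukocytes, and Kdr of endothelium at 190, 180 and 138. The red cell genes Hbb and Alas2 summed to 19937, 18366 and 15713. The part of these values in the results was not tested. In bulk RNA, fewer cells of a type and less RNA per cell cannot be told apart.

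The first comparison, the stimulated against the control array, asks what FSK/PMA, given in place of the ovulatory gonadotropin signal, does to folding genes. Among the members, cytosolic and mitochondrial chaperone genes were mostly higher on the stimulated array, whereas ER genes differed in both directions around a median near 0. The median difference was 0.56 over the 13 cytosolic and mitochondrial members and 0.05 over the 21 ER members, beside -0.10 over all 9395 measured genes. Higher signals, by any amount, were found for 11 of the 13 and for 12 of the 21, beside 43.3% of all genes. At least 2-fold, 1 of the 13 was higher (7.43% of all genes) and 0 were lower (11.4% of all genes), and 0 of the 21 ER members passed 2-fold in either direction. At 1.5-fold, a threshold chosen after seeing the data, 6 of the 13 were higher and 0 lower, and 0 of the 21 ER members were higher and 3 lower, beside 14.9% and 24.0% of all genes. These 1.5-fold counts depend on the scaling. With scaling to the array median 3 ER members were higher (Dnajc3, Edem1 and Ero1a) and 1 lower (Creld2), beside 19.4% and 19.2% of all genes. Under that scaling 7 of 14 cytosolic and mitochondrial members were higher. With quantile normalisation 3 of 14 cytosolic and mitochondrial members remained higher (Bag3, Hspa1a and Hsph1). Of the 21 ER members 0 were then higher and 3 lower, beside 16.5% and 20.7% of all genes. The gap between the 2 medians was 0.50 and ranged from 0.35 to 0.54 over 7 alternative settings of scaling, floor and probe sets. The ER median ranged from -0.09 with quantile normalisation to 0.19 with scaling to the array median, so its sign is not settled.

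**Figure D1:**
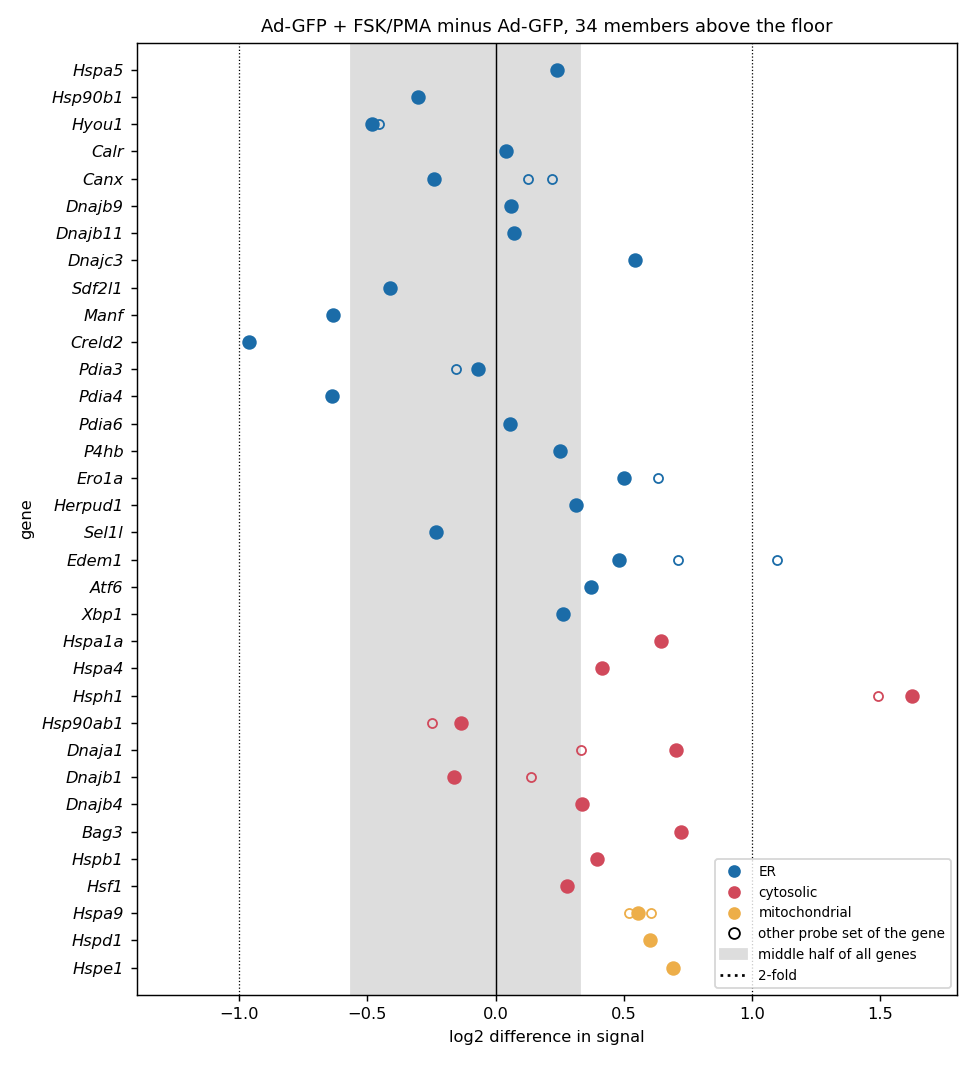
Log2 difference in signal between the stimulated and the control array for each of the 34 members above the floor, ER in blue, cytosolic in red and mitochondrial in yellow, with other probe sets of the same gene as open circles. The grey band runs from the lower to the upper quartile of all measured genes and the dotted lines mark 2-fold. Hsph1 alone lies past 2-fold by its brightest probe set, the 3 mitochondrial genes sit together between 0.56 and 0.69, and ER genes spread from -0.96 to 0.54.

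Hsph1 stood highest of all members. It encodes HSP105, an HSP110-family protein that exchanges nucleotide on HSP70. Its signals were 840.3, 2589 and 2262, so it was low on the control array and high on both stimulated arrays, 3.08-fold higher with FSK/PMA. A second, dimmer probe set read 277, 779 and 728, 2.81-fold higher. Over the settings its difference lay between 1.56 and 1.76.

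The other HSP70-type members were higher by less. Hspa1a, the stress-inducible HSP70, had signals of 182, 284 and 576, 1.56-fold higher with FSK/PMA. Hspa1a and Hspa1b are near-identical, so how far this probe set also reads Hspa1b is uncertain. Hspa4, an HSP110-family relative of Hsph1, had signals of 724 (control), 966 and 2068, 1.33-fold higher. All 3 members of the family thus had their lowest signal on the control array.

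Bag3 encodes a co-chaperone that links HSP70 to small heat shock proteins and selective autophagy. Its signals were 920.4, 1519 and 1623, 1.65-fold higher with FSK/PMA. Dnaja1, a J protein that stimulates the HSP70 ATPase, had signals of 3342, 5438 and 5243, 1.63-fold higher, and 1.26-fold higher by its dimmer probe set. Dnajb4 was 1.26-fold higher. Dnajb1, the HSP40 partner of stress-induced HSP70, stood apart from these, with signals of 1702, 1521 and 1159 and differences of -0.16 and 0.14 by its 2 probe sets, so the probe sets do not settle a direction.

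Hsp90ab1, the constitutive cytosolic HSP90, had signals of 20702, 18850.1 and 18898, a difference of -0.14. With scaling to the array median the difference was 0.00. Hspb1, the small heat shock protein HSP27, was near the floor at 146, 192 and 233, a difference of 0.39. Hsf1 itself had signals of 341, 413 and 406, a difference of 0.28, smaller than the probe-set spread.

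The 3 mitochondrial chaperones were all higher, by similar amounts. Hspe1, the HSP10 lid of the chaperonin, had signals of 16666, 26886 and 27982, 1.61-fold higher with FSK/PMA. Hspd1, the HSP60 barrel, had signals of 14440.0, 21937 and 21298, 1.52-fold higher, and 0.29 on the log2 scale with quantile normalisation. Hspa9, the mitochondrial HSP70 mortalin, had signals of 3181, 4679 and 3636, 1.47-fold higher, and its 2 other probe sets above the floor on all arrays differed by 0.61 and 0.52. On both stimulated arrays all 3 exceeded the control.

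Among ER chaperones, those with the largest differences were lower on the stimulated array. Creld2, an ER-resident protein with disulfide isomerase activity, had signals of 999, 513 and 790, and stood 1.95-fold lower with FSK/PMA. Manf, a secreted and lumenal protein that binds BiP, had signals of 4207, 2712 and 2597, 1.55-fold lower. Pdia4, the disulfide isomerase ERp72, had signals of 2249, 1447 and 1153, 1.55-fold lower. All 3 were highest on the control array and past 1.5-fold, and with scaling to the array median Manf and Pdia4 were no longer past it.

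Hyou1, the ER nucleotide exchange factor GRP170, had signals of 1990.5, 1424 and 907, a difference of -0.48, and its second probe set gave -0.46. Sdf2l1, a subunit of an ER chaperone complex, differed by -0.41, and Hsp90b1 by -0.30 with signals of 8059, 6539 and 5683. Hspa5 had signals of 13147, 15501 and 11242, a difference of 0.24, which was -0.06 with quantile normalisation. Calr and Dnajb11 differed by 0.04 and 0.07. The 3 probe sets of Canx differed by -0.24, 0.22 and 0.13, so no direction can be given for calnexin.

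The highest ER differences were those of a J protein, an oxidase and a mannosidase-like protein. Dnajc3, the ER co-chaperone P58IPK, which also inhibits eukaryotic initiation factor 2 kinases, had signals of 1755, 2557 and 2588, 1.46-fold higher with FSK/PMA. Ero1a, which re-oxidises protein disulfide isomerase, had signals of 1504, 2130.2 and 1620, 1.42-fold higher, and 1.55-fold by its second probe set. Edem1, which passes misfolded glycoproteins on to degradation, was 1.39-fold higher at signals of 2426, 3384 and 2953. Its 2 dimmer probe sets were 1.64-fold and 2.14-fold higher, so the size depends on the probe set.

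The remaining ER members differed little. The disulfide isomerases P4hb, Pdia3 and Pdia6 differed by 0.25, -0.07 and 0.05. In the degradation group Herpud1, a membrane protein of the retrotranslocation complex, differed by 0.31 and Sel1l, the adaptor of the HRD1 ligase, by -0.23. The sensor gene Atf6 had signals of 1691, 2187 and 1998, a difference of 0.37. Xbp1, the target of IRE1, had signals of 3932, 4717 and 4216, a difference of 0.26. Splicing of Xbp1 RNA, which activates it, is not read by this probe set value. Over the settings 7 of 21 ER members changed sign in this comparison, Calr, Canx, Dnajb9, Hspa5, P4hb, Pdia3 and Pdia6, against 1 of 13 cytosolic and mitochondrial members, Hsp90ab1.

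**Figure D2:**
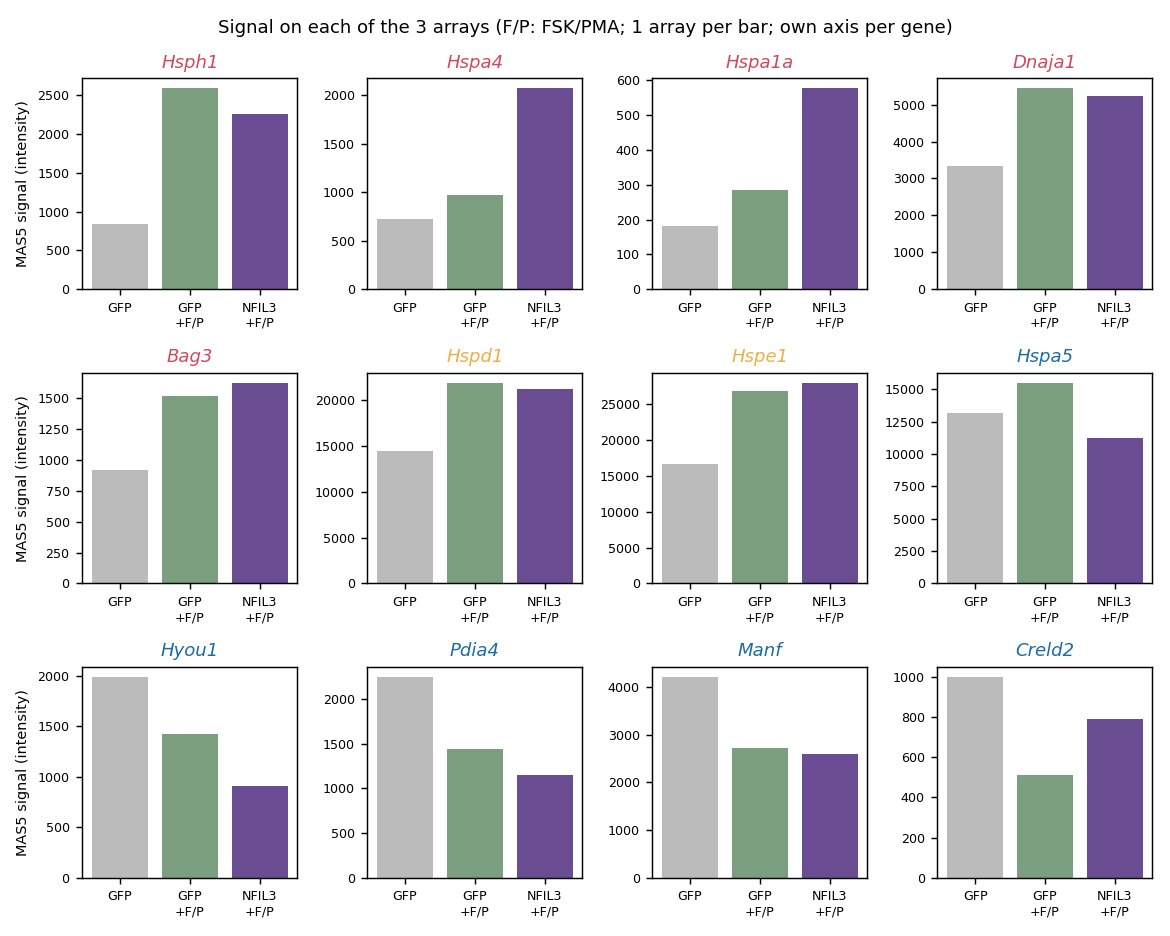
MAS5 signal of 12 members on the control (GFP), stimulated (GFP+F/P) and NFIL3 (NFIL3+F/P) arrays, with 1 bar per array, no replicates and an axis of its own for each gene. Hsph1, Dnaja1, Bag3, Hspd1 and Hspe1 are high on both stimulated arrays, Hspa4 and Hspa1a are highest on the NFIL3 array, and Hyou1 and Pdia4 step down from control to NFIL3.

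The elements found in promoters differed between the compartments. The members were listed for known roles, which include the stress responses that these elements serve. Such a difference was thus likely in advance and is no independent support. RefSeq windows of assembly GRCr8, from 250 bases before to 50 after an annotated start, were matched by symbol for 28 of the 36 members. Manf, Pdia3, Pdia6, Ero1a, Atf6, Dnajb4, Cryab and Hsf1 had no window matched. The ER stress response element (ERSE), read by ATF6 and XBP1 with NF-Y, was searched on both strands as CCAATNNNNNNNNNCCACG. It was found in 7 of 16 ER members, in 0 of 12 cytosolic and mitochondrial members, and in 22 of 33469 windows in all (0.0657%). Its second form, ERSE-II, searched as ATTGGNCCACG, was found in 3 of 16 ER members and 0 of 12 others, and in 0.0508% of windows. Only exact matches were counted, so copies with a mismatch were missed. The matches are shown because among these 28 members they were found in ER genes alone. They are written from the CCAAT or ATTGG end, with the searched letters in capitals and the free letters in lower case.
Hspa5: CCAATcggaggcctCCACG
Hsp90b1, upstream copy: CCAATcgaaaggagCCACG
Hsp90b1, downstream copy: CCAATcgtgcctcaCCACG
Creld2: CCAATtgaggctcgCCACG
Canx: CCAATcatcacgctCCACG
Xbp1: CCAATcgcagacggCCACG
Dnajc3: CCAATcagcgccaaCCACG
Calr: CCAATcagggtcgaCCACG
Herpud1, ERSE-II: ATTGGgCCACG
Dnajb11, ERSE-II: ATTGGcCCACG
Hyou1, ERSE-II, upstream copy: ATTGGcCCACG
Hyou1, ERSE-II, downstream copy: ATTGGgCCACG

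The heat shock element (HSE), the site of HSF1, is built of alternating GAA and TTC units. Runs of 3 units were searched as GAANNTTCNNGAA or TTCNNGAANNTTC on both strands, and each also contains the 2-unit forms GAANNTTC or TTCNNGAA. Such a run was found in 4 of 12 cytosolic and mitochondrial members, Hsph1, Dnaja1, Hspd1 and Hspe1, in 0 of 16 ER members and in 0.798% of windows. The 2-unit form was found in 9 of the 12, in 1 of the 16 (P4hb) and in 15.9% of windows. The 4 members with a 3-unit run differed by 0.60 to 1.62 with FSK/PMA, all past 1.5-fold. Hspa1a and Bag3, whose windows held no such run, were also past 1.5-fold, at 0.65 and 0.72. The Bag3 window held a 2-unit form and the Hspa1a window did not. A window covers only bases around an annotated start, so elements elsewhere or at another start were not read. Whether the annotated Hspa1a start is the one used in these cells was not tested. With quantile normalisation 1 of the 4 members with a run, Hsph1, was past 1.5-fold. Among all 38 measured genes with such a run in a window, these 4 included, 31.6% were at least 1.5-fold higher, beside 14.9% of 7952 measured genes with a window. With scaling to the array median these shares were 35.9% and 19.4%, and with quantile normalisation 20.5% and 16.5%. The 10 ER members with an ERSE or ERSE-II differed by -0.96 to 0.54, with a median of 0.06. A match is a run of letters and no evidence that a factor was bound, and genes that share a promoter are not independent.

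Hspd1 and Hspe1 are transcribed away from each other from start sites 290 bases apart, and their windows share 211 bases, so their HSE is the same stretch of DNA. The windows of Hsph1, the member with the largest difference, and of Hspe1, which holds the shared element, are given with the 3-unit runs in capitals. That of Hspa5 is given with its exact ERSE match in capitals. Hsph1 lies at chr12:10427118-10427417 on the plus strand, Hspe1 at chr9:64084077-64084376 on the plus strand and Hspa5 at chr3:38452766-38453065 on the plus strand.
Hsph1: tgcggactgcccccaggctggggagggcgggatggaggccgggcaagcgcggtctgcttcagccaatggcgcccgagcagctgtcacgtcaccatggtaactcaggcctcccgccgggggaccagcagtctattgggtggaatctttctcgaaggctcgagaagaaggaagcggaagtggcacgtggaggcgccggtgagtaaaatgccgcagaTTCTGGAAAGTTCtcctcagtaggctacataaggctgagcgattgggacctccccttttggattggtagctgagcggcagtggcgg
Hspe1: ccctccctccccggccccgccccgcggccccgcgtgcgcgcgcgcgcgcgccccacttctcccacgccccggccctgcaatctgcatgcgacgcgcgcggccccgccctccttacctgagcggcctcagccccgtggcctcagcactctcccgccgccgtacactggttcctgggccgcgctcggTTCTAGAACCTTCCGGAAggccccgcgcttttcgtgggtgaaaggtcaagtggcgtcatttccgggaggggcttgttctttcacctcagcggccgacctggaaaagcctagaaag
Hspa5: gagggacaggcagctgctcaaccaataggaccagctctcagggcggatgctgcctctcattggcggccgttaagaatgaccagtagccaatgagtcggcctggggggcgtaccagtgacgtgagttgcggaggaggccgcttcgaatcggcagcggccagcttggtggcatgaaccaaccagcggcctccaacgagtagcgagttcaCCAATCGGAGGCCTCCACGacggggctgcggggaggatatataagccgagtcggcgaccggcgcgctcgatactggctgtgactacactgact

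In these sequences the HSE of Hsph1 began 36 bases before the start site, that of Hspe1 began 65 bases before it, where 2 overlapping runs were found, and the ERSE of Hspa5 began 43 bases before it. The cAMP response element TGACGTCA was found in 1 of the 28 members, Hsp90ab1, beside 1.83% of windows. TGACGTG, the XBP1-type unfolded protein response element, was found in Bag3, Hspa5, Hsph1 and Hyou1, beside 1.81% of windows. TGATGNAA, the form of the C/EBP-ATF element searched for ATF4, was found in Herpud1 and Hspa9, beside 3.98% of windows. The NFIL3 site searched as TTANGTAA was found in 0 of the 28, beside 2.24% of windows, which says only that these letters are not in these windows.

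**Figure D3:**
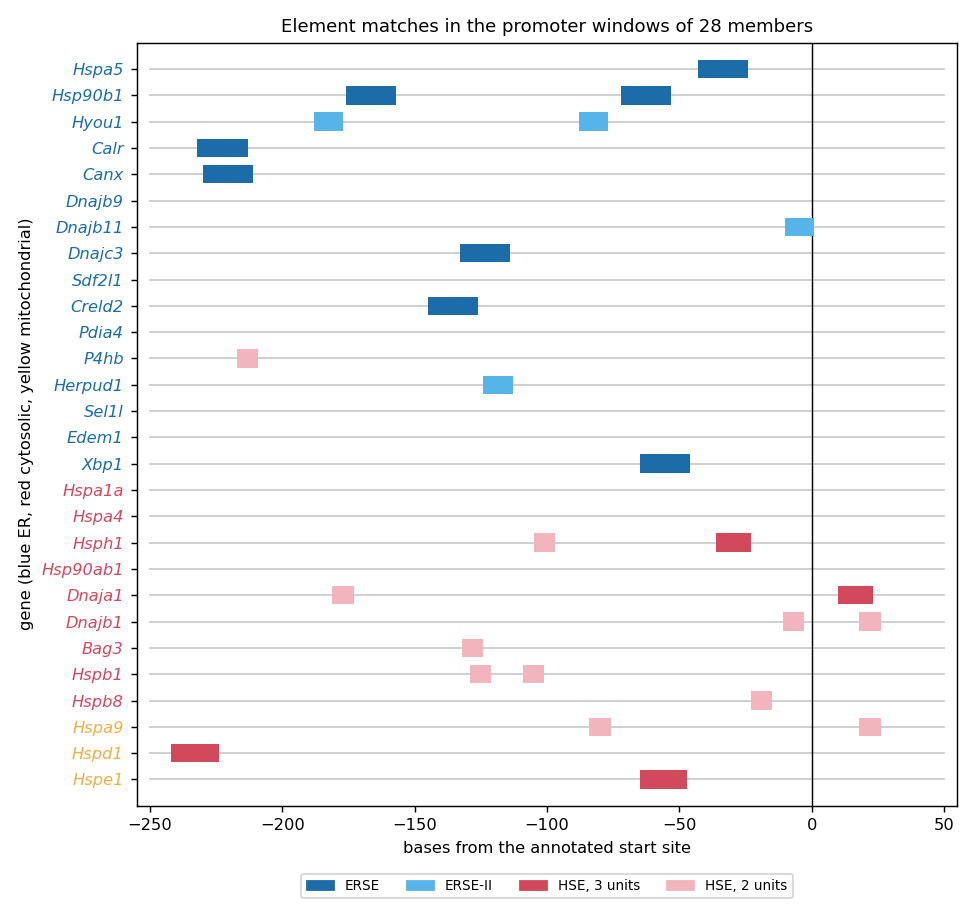
Positions of ERSE (dark blue), ERSE-II (light blue), 3-unit HSE (red) and 2-unit HSE (pink) in the promoter windows of 28 members, as bases from the annotated start site at 0; each grey line is 1 window. ERSE and ERSE-II fall on 10 of the 16 ER genes and on none of the other 12, and 3-unit HSE fall on 4 of those 12.

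The second comparison, the NFIL3 against the stimulated array, asks how folding genes differ when NFIL3 is overexpressed under the same stimulus; it shares the stimulated array with the first comparison. ER members leaned lower on the NFIL3 array by small amounts, and 2 cytosolic HSP70-type genes were higher. The median difference was -0.13 over the 21 ER members and -0.02 over the 13 others, beside 0.03 over all 9397 measured genes. Higher signals, by any amount, were found for 5 of 21 ER members and 6 of 13 others, beside 54.8% of all genes. At least 2-fold, 2 of the 13 were higher (1.34% of all genes) and 0 lower (0.958%), and 0 of the 21 ER members passed 2-fold in either direction. At 1.5-fold 1 ER member was higher and 1 lower, and 2 of the 13 were higher and 0 lower, beside 6.81% and 4.25% of all genes. With scaling to the array median 0 ER members were higher and 6 lower at 1.5-fold (Calr, Dnajb9, Ero1a, Herpud1, Hspa5 and Hyou1), beside 2.93% and 10.7% of all genes.

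The size of these small shifts depends on scaling. Scaling to the array median moved the median of all genes by 0.13 in the FSK/PMA comparison and by -0.23 in the NFIL3 comparison, and that of ER members in the latter to -0.37. Measured against the median of all genes, ER members stood at -0.16, and between -0.19 and -0.10 over the settings. The split of 698 higher and 1072 lower genes past 2-fold with FSK/PMA became 856 and 852 under that scaling. That of 126 higher and 90 lower with NFIL3 became 48 and 190, and 91 and 112 with quantile normalisation.

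Hspa4 was the member with the largest NFIL3 difference, 2.14-fold higher at the signals given above, with the NFIL3 array well above both others. Its log2 difference was 0.86 with scaling to the array median and from 1.08 to 1.11 under the other 6 settings. Hspa1a was 2.03-fold higher and likewise highest on the NFIL3 array. Its difference of 1.02 fell under 2-fold with median scaling (0.78), quantile normalisation (0.91) and no floor (0.98), and it was 0.07 with the floor at the 75th percentile, where its signal was under the floor on the stimulated array. Each of these genes had 1 probe set, so neither has a second reading.

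The other cytosolic and mitochondrial genes had smaller differences. Hsph1 differed by -0.19, Bag3 by 0.10, Dnaja1 by -0.05, Dnajb4 by -0.16, Hspb1 by 0.28, Hsp90ab1 by 0.00 and Hsf1 by -0.02. Dnajb1 differed by -0.39 and -0.49 by its 2 probe sets. Of the mitochondrial members Hspd1 and Hspe1 differed by -0.04 and 0.06, and Hspa9 by -0.36.

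Hyou1 and Creld2 were the ER members past 1.5-fold, in opposite directions. Hyou1 was 1.57-fold lower on the NFIL3 array, and 1.59-fold lower by its second probe set. Creld2 was 1.54-fold higher, which left it between the stimulated and the control array. Herpud1, with signals of 1342, 1667 and 1162, was 1.43-fold lower, and Hspa5 was 1.38-fold lower. Dnajb9, the ER J protein ERdj4, had signals of 2744, 2859 and 2095 and was 1.36-fold lower.

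Ero1a, Calr and Pdia4 followed at differences of -0.40, -0.38 and -0.33, each larger than the probe-set spread of 0.22. The second probe set of Ero1a gave -0.27. Atf6 and Xbp1 differed by -0.13 and -0.16, within that spread, and a dim second probe set of Atf6, under the floor on the first 2 arrays, read 177 on the NFIL3 array. P4hb, Pdia3, Pdia6, Canx, Dnajb11 and Dnajc3 lay between -0.03 and 0.13, and the sign of each depended on the setting. The 10 ER members with an ERSE or ERSE-II had a median of -0.18, with 8 of 10 lower and 2 higher. Canx at -0.02 and Dnajb11 at -0.01 were among the 8. Of all 21 ER members, 16 were lower and 5 higher. These 21 include the 10, and some of the others had no window. Whether members with an element stand apart was thus not tested.

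**Figure D4:**
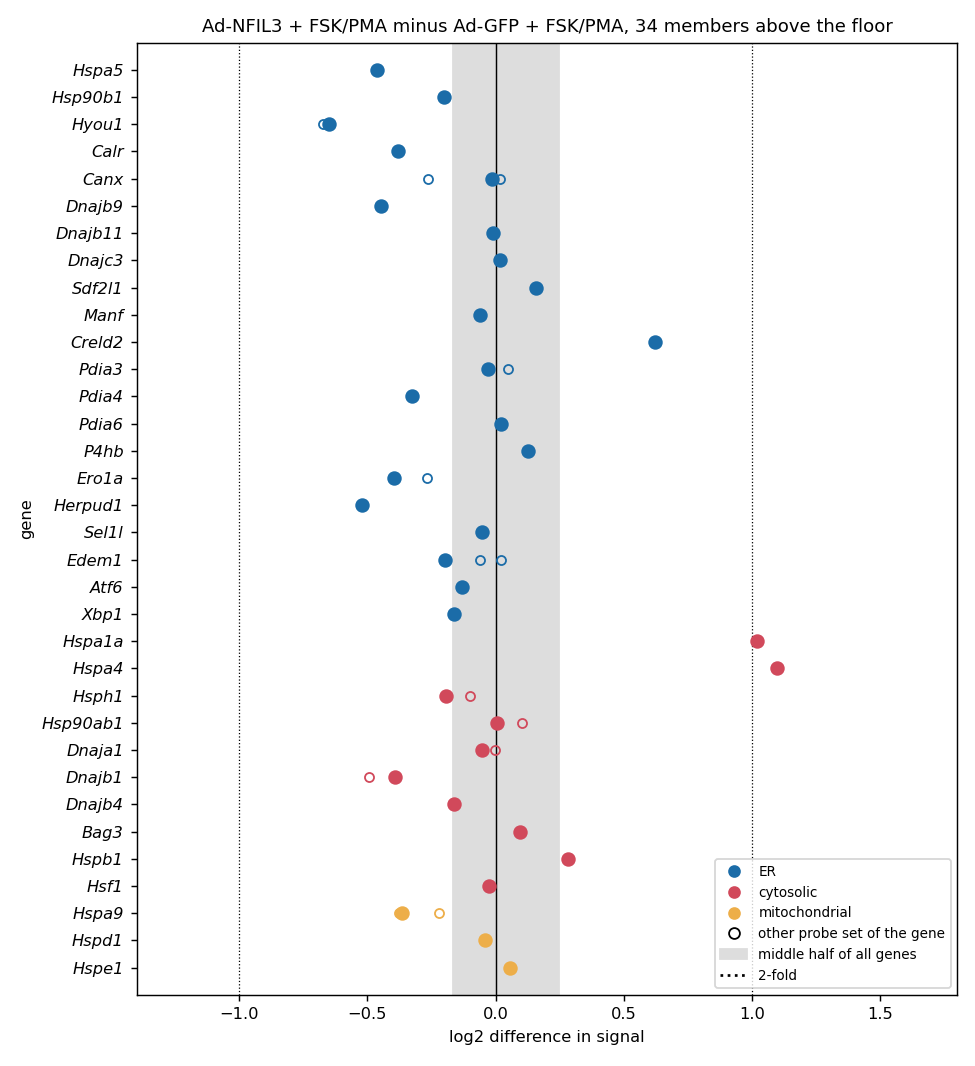
Log2 difference in signal between the NFIL3 and the stimulated array for the 34 members above the floor, drawn as for FSK/PMA with the same axis. Hspa4 and Hspa1a lie just past 2-fold on the higher side, Hyou1 and Creld2 are the outermost ER genes at -0.65 and 0.62, and most other members lie within 0.5 of 0.

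Where a gene has several probe sets, these mostly gave the same direction. Of 12 members with several, 10 had 2 above the floor on both arrays compared. The 2 brightest sets had the same sign in 8 of 10 for FSK/PMA and in 8 of 10 for NFIL3, beside 73.6% and 63.9% of all such genes. The median gap between them was 0.13 and 0.10, and the largest were 0.37 and 0.25.

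Set against the unstimulated control, which shares an array with each comparison above, the NFIL3 array had the wider separation of the compartments. The median was 0.65 over the 13 cytosolic and mitochondrial members and -0.23 over the 21 ER members, beside -0.03 over 9647 genes. At least 2-fold, 3 of the 13 were higher (6.52% of all genes), Hspa1a at 3.17-fold, Hspa4 at 2.85-fold and Hsph1 at 2.69-fold. With the floor at the 75th percentile, which the Hspa1a signal passed on the NFIL3 array alone, its log2 difference was 0.07. At least 2-fold lower was 1 of the 21 ER members, Hyou1 at 2.20-fold (9.05% of all genes), by 2.19-fold also in its second probe set. Pdia4 was 1.95-fold lower, and differed by -1.06 on the log2 scale with median scaling.

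Partner genes of these pathways were taken from lists of other folding genes. Of 22 measured partners of cytosolic HSP70 and HSP90, 2 were at least 2-fold higher (7.43% of all genes) and 1 lower (11.4%) with FSK/PMA, with a median of 0.23. Hspa4l, the remaining HSP110-family gene, had signals of 119, 564 and 225, at least 4.48-fold higher because the control was under the floor, and 2.51-fold lower on the NFIL3 array. Bag1, a nucleotide exchange factor of HSP70, had signals of 2972, 7084 and 5471, 2.38-fold higher. Dnajb2 was 2.13-fold lower. With NFIL3 0 of 22 were at least 2-fold higher (1.34% of all genes) and 1 lower (0.958%), Hspa4l, with a median of 0.06.

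In the PERK and ATF4 arm of the stress response, 2 of 9 measured genes were at least 2-fold higher with FSK/PMA (7.43% of all genes) and 0 lower (11.4%), with a median of 0.50. Asns, the asparagine synthetase gene and a target of ATF4, had signals of 271, 5960 and 3701, 22.0-fold higher with FSK/PMA and 1.61-fold lower on the NFIL3 array. Atf4, the transcription factor of the arm, had signals of 2967, 7111 and 3689, and Ppp1r15a, which restores translation by bringing phosphatase to initiation factor 2, had 582, 1082 and 701. All 3 were highest on the stimulated array. Ddit3, which encodes the stress factor CHOP and was chosen after its values were seen, differed by -0.18 with FSK/PMA and by -0.51 with NFIL3. With NFIL3 0 of 10 genes passed 2-fold, beside 1.34% of all genes higher and 0.958% lower. The median was -0.47, and 3 (Atf4, Asns and Ppp1r15a) were lower by at least 1.5-fold, beside 4.25% of all genes. Atf4 came nearest to 2-fold, at 1.93-fold lower. Counts for this and the other lists were not repeated under the other scalings. Scaling to the array median moved the NFIL3 median of all genes by -0.23.

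The contrast between compartments seen in the members with FSK/PMA was not repeated in the other lists. Medians were 0.17 for other ER folding genes, 0.22 for other degradation genes and -0.43 for 6 sensors and proteases. They were 0.23 for the cytosolic partners, 0.11 each for the chaperonin and mitochondrial lists and 0.05 for other small heat shock and factor genes. The shares of all genes past 2-fold are 7.43% higher and 11.4% lower with FSK/PMA, and 1.34% and 0.958% with NFIL3. These shares hold here and for the chaperonin and mitochondrial lists. Of 26 other ER folding genes 0 were at least 2-fold higher and 1 lower with FSK/PMA, with a median of 0.17. The lower gene was Ero1b, the paralog of Ero1a, at signals of 385, 88.0 and 115, at least 3.06-fold lower. Hspa13, an ER-associated HSP70, had signals of 1364, 2183 and 1218 and was 1.79-fold lower on the NFIL3 array. Of 14 other degradation genes, with a median of 0.22, 0 were at least 2-fold higher and 1 was lower, Edem2 by 2.17-fold. Among 6 measured stress sensors and proteases Creb3l1 was 3.66-fold higher and Creb3 2.81-fold lower, both membrane-bound relatives of ATF6. With NFIL3 0 of the 25 folding, 14 degradation and 7 sensor genes measured there passed 2-fold.

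Of 13 chaperonin and prefoldin genes 0 passed 2-fold in either comparison, and the medians were 0.11 and -0.08. Tcp1, a subunit of the cytosolic chaperonin, was 1.63-fold higher with FSK/PMA and Pfdn1, of prefoldin, 1.77-fold lower. Of 12 other mitochondrial folding and protease genes 0 were at least 2-fold higher with FSK/PMA and 1 was lower, with a median of 0.11. That gene was Hscb, an iron-sulfur cluster co-chaperone, at signals of 1566, 525 and 584. The protease Afg3l2 differed by 0.85 on the log2 scale, and Htra2 was 1.87-fold lower. The probe sets of Yme1l1 differed by 0.77, 0.18, -0.56 and -0.62, so no direction can be given. With NFIL3 0 of the 12 passed 2-fold, and Htra2 was 1.63-fold higher. Of 5 other small heat shock and heat shock factor genes 0 passed 2-fold with FSK/PMA, and Hsf2 differed by 0.22.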

How the data were processed

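RNA of cultured granulosa cells was measured on 3 arrays, 1 per group, each of a pool of 3 experiments. The deposited values are intensities of 31099 probe sets on a linear scale, made by the authors with MAS5 per the submitters' processing notes; the software version is not stated there. Their 2% trimmed mean was 500.2 on each array. MAS5 subtracts mismatch signal, which makes dim signals noisy. Arrays were brought to a common trimmed mean, which left them as deposited, floored at the median signal and put on the log2 scale.

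The platform annotation gave 1 symbol to 20832 probe sets and several to 436. Symbols were updated by Entrez ID through the RefSeq table of assembly GRCr8 (20764 probe sets matched). A gene counts as measured if its signal exceeded the floor on either array compared, and a fold against an array under it is a lower bound. Named are members past 2-fold, the brightest of each role group and others that complete a role group, and from each other list up to 4 genes with the largest difference in a comparison. The members and lists were chosen with earlier results of these data known. Alternatives were other scalings, floors, probe-set rules and a pseudocount of 16. Python 3.11.15 and pandas 2.3.3 were used, and the code was tested on simulated data.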

Additional observations from a re-analysis of the deposited data

How the results depend on the processing

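Over 7 alternative settings, the median difference of cytosolic and mitochondrial members with FSK/PMA ranged from 0.41 to 0.62 and their 2-fold count of 1 was kept in each. In those 7 settings 0 ER members passed 2-fold in either comparison. With scaling to the array median, the ER median for NFIL3 was -0.37. The 2 cytosolic members at least 2-fold higher with NFIL3 became 0 with that scaling, and 1 each with quantile normalisation, the floor at the 75th percentile and no floor with a pseudocount. That scaling moved the NFIL3 median of all genes by -0.23. The floor at the 75th percentile, 547, lay above the Hspa1a signal of 284 on the stimulated array. The 1.5-fold threshold was chosen after the data were seen, and shares of all genes are in brackets. At 1.5-fold 6 of 13 cytosolic and mitochondrial members were higher (14.9%) and 3 of 21 ER members lower (24.0%) with FSK/PMA. With NFIL3 1 ER member was higher (6.81%) and 1 lower (4.25%). With scaling to the array median 3 ER members were higher (19.4%) and 1 lower (19.2%) with FSK/PMA. In the NFIL3 comparison that scaling gave 0 ER members higher (2.93%), and 6 ER members and 2 of 14 others lower (10.7%). With quantile normalisation 3 of 14 cytosolic and mitochondrial members were higher with FSK/PMA (16.5%) and 0 ER members with NFIL3 (4.78%). With the floor at the 75th percentile 0 ER members and 1 of 11 others were higher with NFIL3 (2.64%). With the mean of all probe sets 1 ER member was higher with FSK/PMA (13.2%). For single members, 658 values kept their size or call, 36 moved by more than the probe-set spread, 6 fell below 2-fold and 1 passed it. Many of the 658 were bound to be kept, because a changed floor or probe-set rule leaves most member values as they were. In the NFIL3 comparison 8 of 21 ER members and 5 of 13 others changed sign with the setting. No paired analysis was possible because each group had 1 array. Background was not measured; the floor of 126 is a chosen value, which leaves Hspb8 and Cryab without a difference.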
